A study of Mus musculus with 24 samples.

Results

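Ribosome footprints of mouse neuroblastoma N2a cells were compared between cells in which Eif4e3 had been targeted by CRISPR/Cas9 (KO) and ctrl cells, both kept in the vehicle DMSO. N2a is an established line with features of sympathetic neurons. The comparison was taken as the 5 ribo-seq libraries of these 2 conditions, ctrl replicates 1 and 3 and KO replicates 1, 2 and 3, out of 24 libraries in the series; replicate 2 of the ctrl in DMSO was not analysed here. Both genotypes carried the same Cas9 plasmid with puromycin selection, with guides against exons of Eif4e3 in the KO and without a guide in the ctrl, and both were pools of selected cells and not single clones, so cells that kept an intact copy may be among them. Both received DMSO for 2 h and cycloheximide before lysis. For the same transcripts, values are also given from the 6 ribo-seq libraries of KO and ctrl cells given 250 nM Torin1, an inhibitor of the kinase mTOR, for 2 h, and from the 6 RNA-seq libraries of KO and ctrl cells in DMSO. Replicates are different passages of the cells.

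The eIF4E proteins bind the m7G cap at the 5′ end of an mRNA. eIF4E itself, with the scaffold eIF4G and the helicase eIF4A, recruits the ribosome, and the 4E-BPs compete with eIF4G for it until mTOR phosphorylates them. eIF4E3 is a cap-binding member of the same family. A footprint is the piece of mRNA that a ribosome protects from nuclease, so footprints on a CDS count the ribosomes that were translating it.

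On chromosome 6 of GRCm38, Eif4e3 is transcribed from the minus strand. The coding parts of its first exons are shown because guides were aimed at them, as also at exon 4, and capitals mark the start codon. The coding part of exon 1 runs from 99666628 to 99666752 and exon 2 from 99651719 to 99651791, both read from the coding strand.
Eif4e3 exon 1: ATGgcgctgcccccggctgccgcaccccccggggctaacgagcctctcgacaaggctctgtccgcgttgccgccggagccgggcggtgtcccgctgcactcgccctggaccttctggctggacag
Eif4e3 exon 2: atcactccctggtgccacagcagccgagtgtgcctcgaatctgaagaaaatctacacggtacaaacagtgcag

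Of the 11063 transcripts listed, 10757 had a CPM (counts scaled to the library total) over 1 in all libraries of at least 1 genotype and were tested. Their footprints summed to 4529812 in ctrl replicate 1 and to 669339 in ctrl replicate 3, and to 2714492, 5287004 and 3149235 in KO replicates 1, 2 and 3. Ctrl replicate 3 was the shallow library, with a median of 19 footprints per transcript against 79 to 151 in the others, and 31.4% of its transcripts had fewer than 10. Pearson's r of log2(CPM + 1) between the 2 ctrl libraries was 0.956, and among the KO libraries it was 0.980 to 0.986 (across transcripts, which are not replicates). Of 15 markers of sympathoadrenal neuroblastoma, 14 were tested, with summed footprints of 5100 to 7389 CPM in ctrl and 5330 to 6688 CPM in KO libraries. Chgb was the largest part of the sum, at 2319 and 4294 CPM in ctrl replicates 1 and 3. The sum does not show single markers, whose log2 fold changes ran from -1.10 (Dbh) to 0.21 (Gap43). Th, the first enzyme of dopamine synthesis, had 0 to 2.86 CPM in ctrl and 1.73 to 3.49 CPM in KO libraries. Of 8 fibroblast markers only Pdgfrb was tested, at 1.10 to 2.98 CPM, and of 6 immune markers none was in the table.

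Footprints differed between KO and ctrl for 3 transcripts, 0.0279% of those tested. Eif4e3, the targeted gene, and Dbh, the enzyme that turns dopamine into noradrenaline, were lower in the KO, and Tmsb4x, which encodes the actin-sequestering peptide thymosin beta 4, was higher. Calls required an adjusted p under 0.05 from edgeR's quasi-likelihood test, with the Benjamini-Hochberg adjustment over all transcripts tested. An unadjusted p under 0.05 was reached by 850 transcripts (7.9%), of which 410 (3.81%) were higher and 440 (4.09%) lower in the KO. Of all transcripts tested, 5340 had a log2 fold change above 0. In these bulk samples, fewer cells with a transcript and less of it per cell cannot be told apart.

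Eif4e3 had 92 and 11 footprints in ctrl replicates 1 and 3, which is 20.2 and 16.4 CPM after TMM scaling. In KO replicates 1, 2 and 3 it had 7, 18 and 8, or 2.56, 3.45 and 2.54 CPM. The ctrl and KO libraries did not overlap, and footprints remained in every KO library. Its log2 fold change was -2.69 (standard error 0.330, 95% interval -3.38 to -2.003, edgeR adjusted p = 0.00111). In separate libraries it was -1.93 in Torin1 footprints (standard error 0.367, edgeR adjusted p = 6.17e-04) and -2.05 in mRNA in DMSO (standard error 0.242, edgeR adjusted p = 0.0312). The translation efficiency (TE), tested as the change in footprints beyond that in mRNA, had a log2 difference of -0.67 for Eif4e3 (standard error 0.430, edgeR adjusted p = 0.977). Without ctrl replicate 1 only the shallow ctrl library is left, taken to vary like the KO libraries, and the call was lost (log2 fold change -2.47, edgeR adjusted p = 0.171).

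Dbh, on chromosome 2, had 99.4 and 83.5 CPM in ctrl replicates 1 and 3. In KO replicates 1, 2 and 3 it had 43.8, 42.4 and 45.4 CPM, so every KO library lay below both ctrl libraries. The log2 fold change was -1.10 (standard error 0.167, 95% interval -1.45 to -0.75, edgeR adjusted p = 0.0132). The Torin1 libraries, which this comparison does not use, had 53.5, 72.5 and 71.2 CPM in ctrl and 16.0, 30.3 and 20.8 CPM in KO (log2 fold change -1.57, standard error 0.195, edgeR adjusted p = 4.61e-07). Its mRNA in DMSO was at 48.6 to 50.5 CPM in ctrl and 35.3 to 45.0 CPM in KO, without overlap. The log2 fold change of -0.33 did not pass (standard error 0.134, edgeR adjusted p = 0.683). With the replicate number as a block, the mRNA log2 fold change was -0.34, with an unadjusted p of 0.00494 and an adjusted p of 0.0563 from edgeR. The log2 difference in TE was -0.77 (standard error 0.216), with an unadjusted p of 0.00230 and an adjusted p of 0.977 from edgeR. The call for Dbh was lost without ctrl replicate 1 and without any 1 of the KO libraries, where edgeR's adjusted p was 0.0640 to 0.194 and the log2 fold change -1.13 to -0.94.

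Tmsb4x, on chromosome X, had 22.4 and 13.4 CPM in ctrl replicates 1 and 3, the second from 9 footprints. It had 58.8, 46.0 and 52.4 CPM in KO replicates 1, 2 and 3, all above both ctrl libraries. The log2 fold change was 1.35 (standard error 0.226, 95% interval 0.88 to 1.82, edgeR adjusted p = 0.0310). In Torin1 the footprints were 39.6, 35.3 and 22.5 CPM in ctrl and 98.2, 71.9 and 73.6 CPM in KO (log2 fold change 1.34, standard error 0.179, edgeR adjusted p = 2.12e-06). Its mRNA in DMSO was 8.19 to 12.0 CPM in ctrl and 17.7 to 19.6 CPM in KO, and the log2 fold change of 0.92 did not pass (standard error 0.173, edgeR adjusted p = 0.221). With the replicate number as a block, in numbered columns of other tables, it passed (0.93, edgeR adjusted p = 1.69e-05). When single libraries were omitted the call held only without KO replicate 2, and the log2 fold change ranged from 1.21 to 1.94. It was also lost when the trend of each library with the GC content of the CDS, described below, was taken out (log2 fold change 1.07, edgeR adjusted p = 0.645), but not when the replicate block was added to that fit (1.33, edgeR adjusted p = 0.0184).

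Tmsb10 encodes thymosin beta 10, a close relative of thymosin beta 4, and its footprints were 212 and 242 CPM in ctrl and 320, 347 and 317 CPM in KO libraries. The groups did not overlap, as for 26.5% of all transcripts tested. The log2 fold change of 0.55 did not pass (standard error 0.155, edgeR adjusted p = 0.501). Its Torin1 footprints were called higher (0.70, edgeR adjusted p = 3.30e-05). Its mRNA in DMSO had a log2 fold change of -0.34 (edgeR adjusted p = 0.683), and with the replicate block it was called lower (-0.33, edgeR adjusted p = 0.0191). The CDSs of both genes are shown because near-identical copies can exchange reads, and capitals mark the bases that differ. They are spliced, come from GRCm38 and leave out the stop codon.
Tmsb4x: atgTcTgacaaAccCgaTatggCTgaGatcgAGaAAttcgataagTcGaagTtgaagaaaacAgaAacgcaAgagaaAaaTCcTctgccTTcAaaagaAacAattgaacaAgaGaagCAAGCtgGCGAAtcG
Tmsb10: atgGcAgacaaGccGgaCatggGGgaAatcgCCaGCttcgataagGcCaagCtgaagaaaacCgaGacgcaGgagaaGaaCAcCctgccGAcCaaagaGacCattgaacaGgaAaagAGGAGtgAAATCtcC
Over 132 bases the CDSs were identical at 92 (69.7%), the longest identical run was 10 bases, and no stretch of 25 bases was shared.

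**Figure D1:**
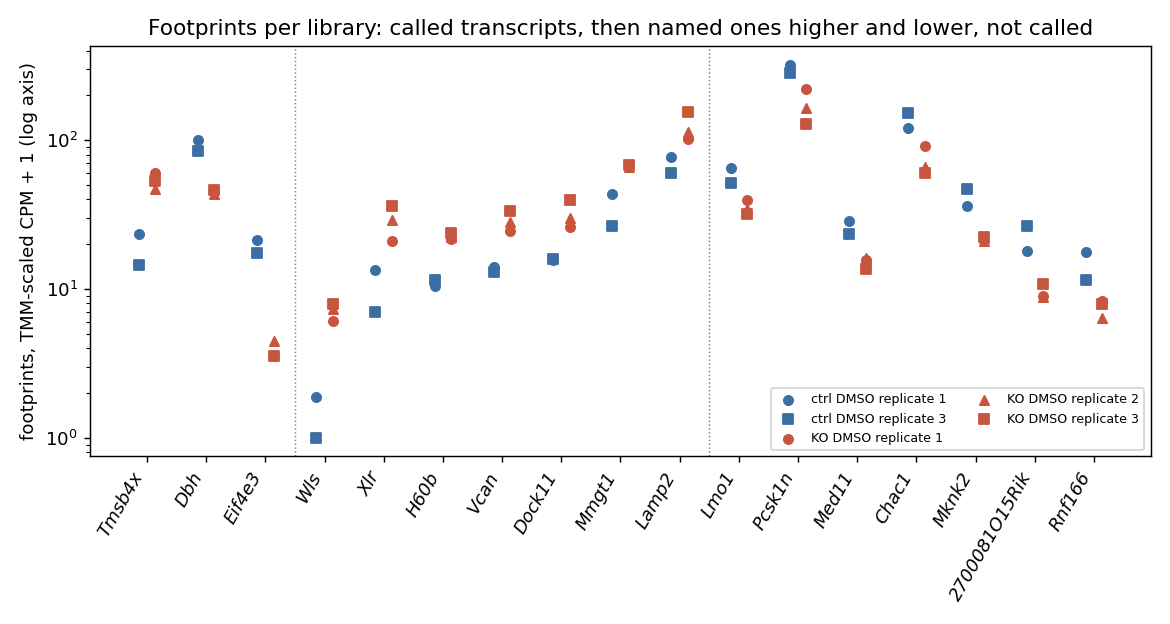
Footprints of each library as TMM-scaled CPM plus 1 on a log axis, for the 3 called transcripts and for the named transcripts among those with the smallest p in each direction that were not called. Blue points are ctrl and red points KO libraries, and no gene shown has overlapping groups, since that was part of how those not called were chosen.

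The size of change that could have been called differed with the footprint count. The next transcript to be called would have needed an unadjusted p of 1.86e-05. At the standard error of each transcript, this corresponded to a median log2 change of 1.26 (2.39-fold) over all transcripts. With the transcripts ranked by count and cut into 4 bins of equal size, it was 2.46 in the bin with the fewest footprints (a mean of 1.6 to 35 per library) and 0.93 in the bin with the most (247 to 33572). A 2-fold change would have sufficed for 2471 transcripts (23.0%), of which 2139 were in the top bin. The power to call a 2-fold change, computed from the standard errors, had a mean of 28.2% over all transcripts, 1.20% in the lowest bin and 62.9% in the top bin. With Torin1, where 6 libraries of more even depth were available, the median change needed at the same p rank was 0.95, the mean power 53.9%, and a 2-fold change would have sufficed for 53.4% of transcripts. In the other direction, the unadjusted 95% interval of the log2 fold change lay within -1 and 1 for 8162 transcripts (75.9%) and within a 1.5-fold change either way for 3715 (34.5%). For these a larger change is outside the interval.

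**Figure D2:**
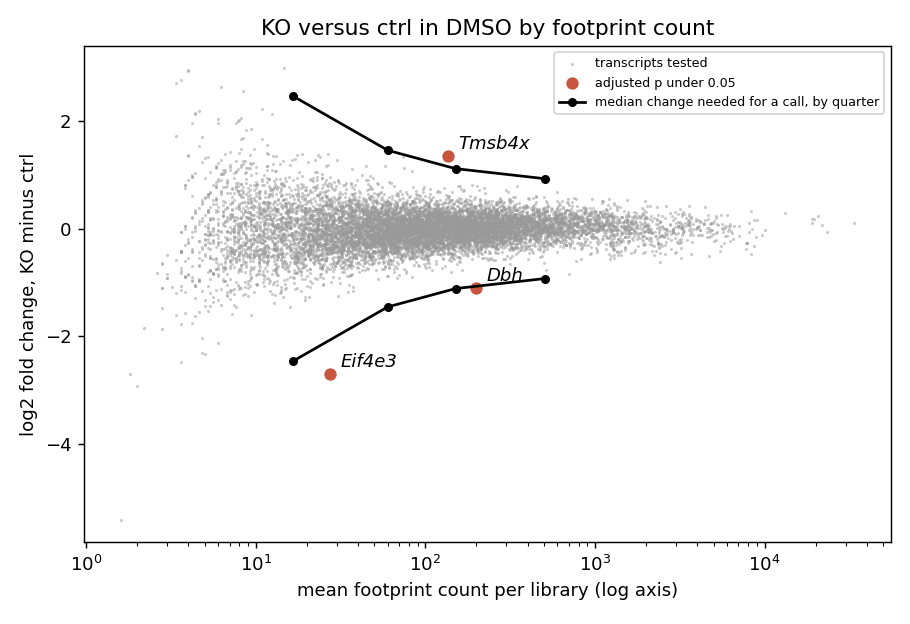
Log2 fold change of footprints (KO minus ctrl in DMSO) against the mean count per library on a log axis, 1 point per transcript, with the 3 called transcripts in red. Black points give the median change that a call would have needed in each of 4 bins of transcripts by count, from 2.46 at the lowest to 0.93 at the highest.

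Among transcripts not called, 8 were taken with the smallest p and more footprints in the KO, without overlap of the genotypes and with a mean of at least 10 footprints in the KO libraries, and they included Wls, Xlr, Vcan, H60b, Dock11, Mmgt1 and Lamp2. Their values are given as measured, not as changes, since 26.5% of all transcripts tested had no overlap between the libraries (13.6% higher and 12.9% lower in the KO). Wls, the carrier that brings Wnt proteins to the cell surface, had 4 and 0 footprints in the ctrl libraries and 14, 33 and 22 in the KO libraries (edgeR adjusted p = 0.272). Its Torin1 footprints differed (log2 fold change 2.30, edgeR adjusted p = 0.00458), and its mRNA had a log2 fold change of 0.25. Vcan encodes versican, a proteoglycan of the extracellular matrix, and had 13.0 and 11.9 CPM in ctrl and 23.4, 27.2 and 32.4 CPM in KO libraries. H60b, a ligand of the natural killer cell receptor NKG2D, had 9.45 and 10.4 CPM in ctrl and 20.8, 21.3 and 22.9 CPM in KO libraries. Lamp2, a protein of the lysosomal membrane, had 75.9 and 59.7 CPM in ctrl and 102, 112 and 154 CPM in KO libraries. Xlr, Dock11 (an activator of the GTPase Cdc42), Mmgt1 (a subunit of the complex that inserts membrane proteins into the endoplasmic reticulum) and Lamp2 are all on chromosome X, and their log2 fold changes were 0.80 to 1.32. Xlr belongs to a multigene family, so its counts are uncertain. All 8 were higher in the KO with Torin1 too, 5 of them called there, against 6.03% of all transcripts called in that comparison and 20.3% with an unadjusted p under 0.05.

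The 8 chosen in the same way among transcripts with fewer footprints in the KO included Chac1, Pcsk1n, Mknk2, Lmo1, Rnf166, 2700081O15Rik and Med11. Chac1, an enzyme that degrades glutathione and a target of ATF4, had 120 and 151 CPM in ctrl and 90.6, 65.0 and 59.1 CPM in KO libraries (log2 fold change -0.89, edgeR adjusted p = 0.303). Pcsk1n, which encodes an inhibitor of a prohormone convertase, had 321 and 283 CPM in ctrl and 219, 163 and 128 CPM in KO libraries. Mknk2, a kinase that phosphorylates eIF4E, had 35.2 and 46.2 CPM in ctrl and 20.1, 19.95 and 21.3 CPM in KO libraries (log2 fold change -0.90, edgeR adjusted p = 0.391). Lmo1, a transcriptional cofactor linked to neuroblastoma, had 63.8 and 50.7 CPM in ctrl and 38.7, 33.6 and 31.1 CPM in KO libraries. Med11 is a subunit of Mediator and Rnf166 a ubiquitin ligase, and with 2700081O15Rik they had log2 fold changes of -0.89 to -1.25. With Torin1, 7 of the 8 were lower in the KO and 2 were called lower, Pcsk1n (log2 fold change -1.42) and Mknk2 (-1.60), while Chac1 was at 0.03. The interaction of genotype with treatment passed for 12 transcripts (0.112%), none of them named here, and 6.87% had an unadjusted p under 0.05. With the replicate block 35 passed, among them the immediate early genes Junb and Ier2.

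Transcripts with an unadjusted p under 0.05 in DMSO were followed in libraries that had no part in choosing them. These libraries came from the same selected KO and ctrl cells, and possibly from the same passages. An effect of the KO therefore cannot be told apart from other differences between the selected populations. Of the 408 higher ones that were also tested with Torin1, 339 (83.1%) had a log2 fold change above 0 there, against 50.6% of all transcripts, and 57 were called higher and 3 lower, against 2.03% and 4.09% of all. Of the 427 lower ones, 350 (82.0%) were below 0, against 49.4%, and 62 were called lower and 3 higher. In mRNA in DMSO, where 0.0183% of transcripts were called and 5.91% had an unadjusted p under 0.05, 325 of 397 (81.9%) were above 0, against 52.8%, and 278 of 404 (68.8%) below 0, against 47.2%. The trend with GC content described below ran the same way with Torin1, while in mRNA the libraries of the 2 genotypes overlapped in it. The part of this trend in the shared direction was not tested. TE in DMSO was called for 0 of 10478 transcripts by edgeR, and 429 had an unadjusted p under 0.05 (4.09%).

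Of the eIF4E family and the 4E-BPs, 5 of 7 members were tested and Eif4e3 was the 1 called. Per kilobase of CDS, ctrl footprints were 670 ± 64.0 CPM (SD, n = 2) for Eif4ebp1 and 416 ± 27.0 for Eif4e. Eif4e2, which encodes the 4EHP repressor, followed at 105 ± 15.6, and Eif4e3 at 29.5 ± 4.35 and Eif4ebp2 at 28.7 ± 11.3 did not differ beyond their spread. In KO libraries Eif4e3 was at 4.59 ± 0.842 CPM per kilobase (SD, n = 3), below each of the others. Eif4e had 283 and 258 CPM in ctrl and 304, 251 and 246 CPM in KO libraries, with a log2 fold change of -0.03 (95% interval -0.36 to 0.30). Eif4e2 had 0.22 (-0.15 to 0.58), Eif4ebp1 -0.18 (-0.53 to 0.17) and Eif4ebp2 -0.44 (-1.10 to 0.21), and the libraries of both genotypes overlapped for each of them. Among 19 partners of eIF4F tested, 0 were called by edgeR, 1 had an unadjusted p under 0.05 in each direction (Paip1, which stimulates translation through the poly(A)-binding protein, at 0.43, and Mknk2), and the median log2 fold change was 0.01. The 9 genes that the study names as partners of eIF4E3 from its Y2H screen, a test of protein binding in yeast, were listed by mouse symbol. Of these partners 8 were tested, and 0 were called or had an unadjusted p under 0.05 in DMSO. Xiap, an inhibitor of apoptosis on chromosome X, had the smallest p of them, with 11.7 and 5.97 CPM in ctrl and 15.2 to 16.4 CPM in KO libraries. With Torin1, 1 of the 8 was called, Cdc5l, which was higher (log2 fold change 0.38, edgeR adjusted p = 0.0363).

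Of the genes of catecholamine synthesis, storage and breakdown, 13 of 19 were tested, and Dbh was the 1 called. Scg3, a granin-binding protein of secretory granules, was the only other with an unadjusted p under 0.05, at 308 and 376 CPM in ctrl and 433, 481 and 452 CPM in KO libraries (log2 fold change 0.43, edgeR adjusted p = 0.548). None of the neighbouring steps was called in DMSO. Ddc, which makes dopamine, was at 0.13 on the log2 scale (95% interval -0.64 to 0.90), and Slc18a2, which loads it into vesicles, at 0.19 (-0.19 to 0.56). Gch1 and Qdpr, which make and recycle the cofactor of Th, had -0.09 and -0.16. The granins Chga, Chgb and Scg2 had -0.14, -0.11 and 0.30. The median of the 13 was -0.09. With Torin1, 3 of the 14 tested were called lower and 0 higher, beside 6.03% of all transcripts called in either direction. They were Dbh, Slc18a2 (log2 fold change -0.40, edgeR adjusted p = 0.0481) and Cyb561 (-0.92, edgeR adjusted p = 0.0252). Of the neuroblastoma transcription factors, 14 were tested and Hand2 was the 1 with an unadjusted p under 0.05, at 105 and 192 CPM in ctrl and 104, 88.3 and 72.1 CPM in KO libraries, where KO replicate 1 lay just below the lower ctrl library.

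No other list held a called transcript by edgeR except that of actin, through Tmsb4x. The counts of members at an unadjusted p under 0.05 stand beside 3.81% higher and 4.09% lower over all transcripts, of which 5340 of 10757 were above 0. Of 84 ribosomal proteins, whose mRNAs carry a terminal oligopyrimidine (TOP) tract, 27 had a log2 fold change above 0, 1 had an unadjusted p under 0.05 and was higher, 7 were lower, and the median was -0.07. Those with the smallest p were Rplp2 (-0.55) and Rps9 (-0.50). Of 78 proteins of the mitochondrial ribosome, 5 were lower at an unadjusted p under 0.05, beside 4.09% of all transcripts, and 0 higher, with a median of -0.12. The 39 members of complexes III and IV and ATP synthase had 3 lower and 0 higher and a median of -0.13, and the 36 of complex I had 1 lower, 0 higher and a median of -0.10. Before the GC trend described below was taken out, ER chaperones had the highest median, 0.20 over 17 transcripts, of which 13 were above 0 and 1, Dnajb9 (0.55), reached an unadjusted p under 0.05. In the extracellular matrix list 5 of 14 were higher at an unadjusted p under 0.05, beside 3.81% of all transcripts, and 0 lower, among them Fn1, fibronectin, with 119 and 146 CPM in ctrl and 163, 214 and 245 CPM in KO libraries (log2 fold change 0.68, edgeR adjusted p = 0.501). With Torin1 the median of that list was -0.25 and that of the ER chaperones -0.11. There 5 of the 14 and 4 of the 17 were called lower and 0 higher, beside 6.03% of all transcripts called in either direction. The difference between the treatments was not tested for these lists.

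**Figure D3:**
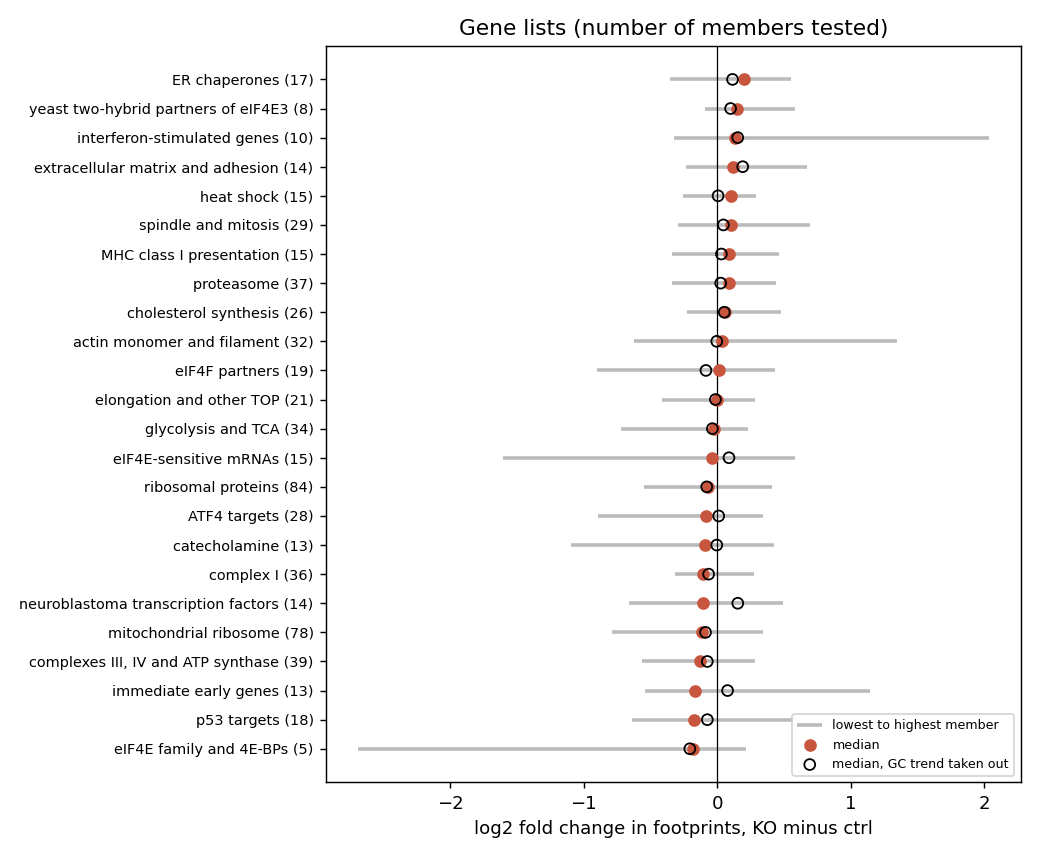
Median log2 fold change in footprints, KO minus ctrl in DMSO, of each list with at least 5 transcripts tested (red), with the range of its members (grey bar) and the median after the GC trend of each library was taken out (open circle). The red medians lie between -0.18 and 0.20 and the open circles between -0.20 and 0.19.

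Targets of ATF4, the transcription factor of the amino acid response, had 3 of 28 lower (Chac1 and Ddit4 among them) and 0 higher at an unadjusted p under 0.05, beside 4.09% lower of all transcripts, with a median of -0.09. The mRNAs known to depend on eIF4E had 1 of 15 higher (Hif1a, 0.38) and 1 lower (Ccnd3, -0.54) and a median of -0.04. For MHC class I presentation the median was 0.09 over 15 transcripts, with Erap1 at 0.46 the only one with an unadjusted p under 0.05. With Torin1 the median of that list was -0.48 and 8 of the 15 were called lower, beside 6.03% of all transcripts called in either direction. In DMSO 0 of the 15 were called by edgeR, beside 0.0279%, and the difference between the treatments was not tested for the list.

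Footprints differed with the base composition of the CDS, a pattern noticed in these data. Transcripts were cut into 4 bins of equal size by GC content. The 2676 of the lowest bin (34.4% to 48.1%) had a median log2 fold change of 0.19, with 298 higher and 12 lower at an unadjusted p under 0.05. In the highest bin (57.3% to 75.6%) the median was -0.20, with 16 higher and 277 lower. The difference between the lowest and the highest bin, as median log2(CPM + 1) against the ctrl mean, was -0.07 in ctrl replicate 1 and 0.07 in ctrl replicate 3. It was 0.18, 0.40 and 0.39 in KO replicates 1, 2 and 3, above both ctrl libraries. The 2 ctrl values mirror each other because each library was set against the ctrl mean. An exact two-sided permutation test over libraries gave p = 0.2, the smallest that 2 against 3 libraries can give. With Torin1 it was -0.12 to 0.12 in the ctrl and 0.26 to 0.42 in the KO libraries (exact permutation p = 0.1, the smallest possible). In mRNA the libraries overlapped, at -0.28 to 0.31 in ctrl and 0.00 to 0.35 in KO (exact permutation p = 0.4). The 8 transcripts taken above as higher had CDSs of 35.7% to 49.0% GC and the 8 taken as lower 55.8% to 72.1%, so the 2 sets did not overlap. Whether this trend comes from the libraries or from the cells was not tested.

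**Figure D4:**
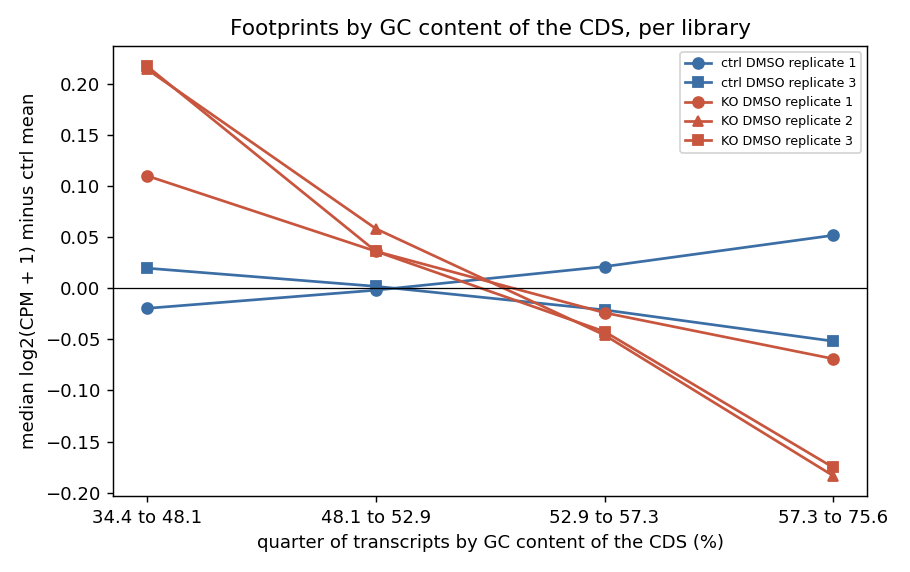
Median log2(CPM + 1) of each library minus the mean of the 2 ctrl libraries, for 4 bins of transcripts by GC content of the CDS. The KO libraries run from 0.11 to 0.22 in the lowest bin to -0.07 to -0.18 in the highest, and the ctrl libraries lie between -0.05 and 0.05.

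With that trend taken out of each library, edgeR called 2 transcripts, Eif4e3 (log2 fold change -2.63, adjusted p = 0.00245) and Dbh (-1.01, adjusted p = 0.0373). With the replicate block in the same fit it called Eif4e3 and Tmsb4x (1.33, adjusted p = 0.0184), and Dbh did not pass (-0.98, adjusted p = 0.0792). The number with an unadjusted p under 0.05 went from 850 to 437, 207 higher and 230 lower. The median of the neuroblastoma transcription factors, whose CDSs had a median GC content of 64.1%, went from -0.11 to 0.15, and that of the immediate early genes (61.5% GC) from -0.17 to 0.08. The extracellular matrix list had a median of 0.19 in place of 0.12 and 4 in place of 5 members higher. The ribosomal proteins (52.7% GC) had a median of -0.08 in place of -0.07, with 7 lower and 0 higher. The ER chaperones had 0.12 in place of 0.20 with 0 members higher, so that the extracellular matrix list then had the highest median, and Dnajb9 had an unadjusted p of 0.185. The targets of ATF4 had 0.01 in place of -0.09 with 1 in place of 3 lower, and Ddit4 had an unadjusted p of 0.0662. The mRNAs known to depend on eIF4E had 0.09 in place of -0.04, with neither Hif1a nor Ccnd3 at an unadjusted p under 0.05, and Scg3 and Hand2 were no longer under it either.

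Median changes by length were smaller. Over 4 bins from the shortest to the longest CDSs the median log2 fold change was -0.06, -0.02, 0.01 and 0.06, with 70 higher and 180 lower in the shortest and 156 higher and 53 lower in the longest. The ctrl libraries spanned as much, at 0.11 and -0.11 for the shortest bin and -0.10 and 0.10 for the longest. For 5′ TLs, the untranslated stretch before the start codon, the medians were -0.04, 0.01, 0.01 and 0.01.

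X-linked transcripts had more footprints in the KO than those of any autosome, a pattern also noticed after the values were seen. The 361 X-linked transcripts tested had a median log2 fold change of 0.20, with 266 above 0, while the 19 autosomes had medians between -0.07 (chromosome 6) and 0.08 (chromosome 18). On X, 47 (13.0%) were higher and 5 lower at an unadjusted p under 0.05, against 3.81% higher over all transcripts. Over transcripts with a mean of at least 10 CPM, the X median minus the autosomal median was -0.02 and 0.02 in ctrl replicates 1 and 3 and 0.12, 0.20 and 0.20 in KO replicates 1, 2 and 3 (exact two-sided permutation p = 0.2, the smallest possible). The groups did not overlap, and the 2 ctrl values mirror each other because each library was set against the ctrl mean. In libraries that had no part in it, the same value was -0.05 to 0.02 in ctrl and 0.16 to 0.19 in KO with Torin1 (exact permutation p = 0.1) and -0.03 to 0.07 in ctrl and 0.11 to 0.15 in KO for mRNA in DMSO (exact permutation p = 0.1). Both are the smallest p that 3 against 3 libraries can give. These libraries came from the same selected KO and ctrl cells as those in DMSO above, and possibly from the same passages. They therefore do not separate the KO from other differences between the populations.

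X-linked CDSs had a median GC content of 48.6% against 53.1% on the autosomes. Within the bins of GC content, the X median exceeded the autosomal one by 0.15, 0.11, 0.09 and 0.22 from the lowest to the highest bin, the last with 29 X-linked transcripts. After the GC trend was taken out, the X median exceeded the autosomal one by 0.12 in place of 0.21, with 28 higher and 6 lower of 361 on X and 1.93% higher over all transcripts. Per library the difference was then 0.00 in both ctrl libraries (again mirror values) and 0.07, 0.11 and 0.10 in KO replicates 1, 2 and 3. The size varied along the chromosome. Between 40 and 60 Mb the median was 0.58 over 35 transcripts, with 13 higher and 1 lower at an unadjusted p under 0.05, all before the GC trend was taken out, and it was 0.37 with Torin1 and 0.49 in mRNA. After the trend was taken out, the median of this stretch was 0.33 in footprints in DMSO. Between 0 and 20 Mb it was 0.05 over 35 transcripts. Pcsk1n, in that first stretch, was the X-linked transcript with the smallest p among those lower in the KO. Mmgt1 and Xlr lie in the 40 to 60 Mb stretch, and so do Thoc2, an mRNA export factor (log2 fold change 0.79, edgeR adjusted p = 0.501), and Stag2, a cohesin subunit (0.59, edgeR adjusted p = 0.501), both named after their values were seen. Of X-linked transcripts only Tmsb4x was called. What sets this difference was not tested.

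**Figure D5:**
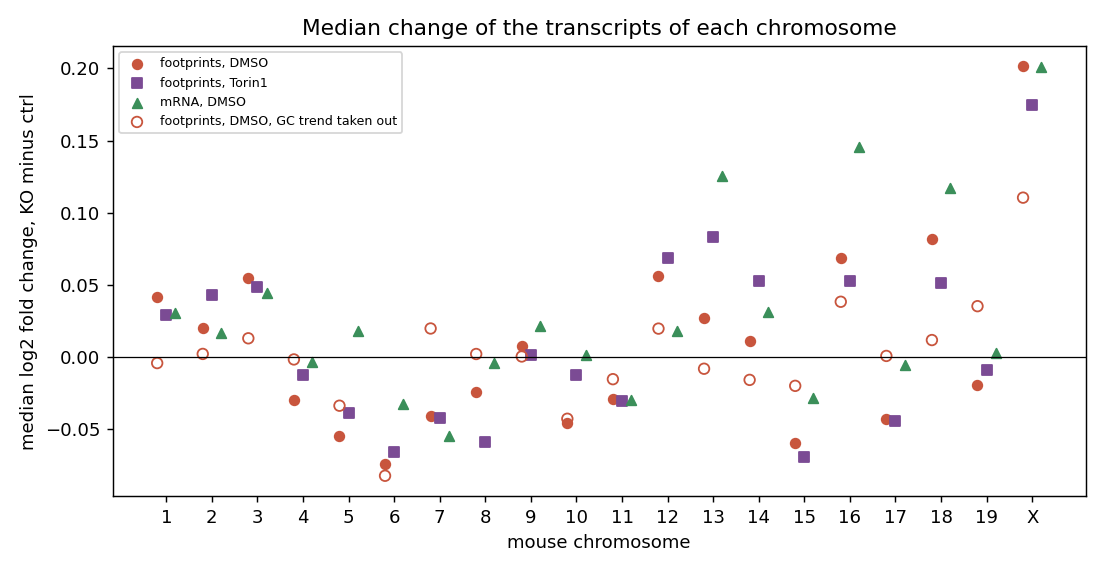
Median log2 fold change, KO minus ctrl, of the transcripts of each chromosome in 3 sets of libraries that share none, footprints in DMSO (red circles), footprints with Torin1 (purple squares) and mRNA in DMSO (green triangles), with footprints in DMSO after the GC trend was taken out as open circles. X stands at 0.20, 0.17, 0.20 and 0.11 in this order.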

How the data were processed

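Ribo-seq and RNA-seq libraries of KO and ctrl N2a cells were used. The authors trimmed adaptors with cutadapt, kept footprints of a set length range, aligned reads to mm10 (HISAT2) and then to canonical transcripts alone (Bowtie2), and deposited counts per CDS (P-sites for footprints) without normalization. The tables also hold the authors' own comparison from edgeR, which was not used.

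From the deposited counts, transcripts were kept where CPM exceeded 1 in all libraries of at least 1 condition. They were fitted with edgeR 4.0.16 (R 4.3.3) by TMM and the quasi-likelihood F-test, with Benjamini-Hochberg adjustment at 0.05. The fit was also run on simulated counts with large known changes, the same dispersion for all transcripts and no GC trend. That run does not show how well smaller changes are found in these data. TE was the assay by genotype term, scaled within each assay. Alternatives included DESeq2 1.42.0 and limma 3.58.1. CDS, leader and position came from GENCODE release M21 on GRCm38. In the RNA-seq table of KO and ctrl in DMSO, 2 columns of each genotype share a replicate number, so all were entered unnumbered, and the replicate block used the numbered columns of the tables by treatment. Ribo-seq depth was 669339 to 5287004 counts. The p-values measure the spread between replicate libraries, in which passage and library handling are not separated. They do not cover differences between separately selected populations of cells.

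Named were Eif4e3, every called transcript, the 8 smallest p in each direction among the others with a mean of at least 10 counts in the higher group and no overlap, all members of the eIF4E and catecholamine lists, and, of the other 24 lists, up to 2 members with the smallest p. Some transcripts that meet this rule are not reported here by name, and counts and medians include them. The members and the lists were chosen with earlier results of these data known.

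Replicates are passages per the labels, and library names show that ribo-seq replicates of one number shared a sequencing lane. The main fits did not use the replicate numbers, and only the replicate block took them as pairs. Deviations from the condition mean had an r of 0.06 between ctrl and KO replicate 1 and of -0.04 for replicate 3. Between ctrl replicate 3 and KO replicate 2 it was 0.13. With 2 ctrl libraries their deviations mirror each other, so these values cannot show whether the replicates are paired. The replicate block was an alternative.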

Additional observations from a re-analysis of the deposited data

How the results depend on the processing

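For footprints in DMSO, the 3 calls became 10 with edgeR's exact test, which added Wls, Xlr, Vcan, Mmgt1, Chac1, Pcsk1n and Mknk2, and leaving out 1 library gave 1 to 2 calls. DESeq2, RLE, no further filter, filterByExpr, library size alone and all 4 conditions together each kept Eif4e3, Dbh and Tmsb4x, and limma-voom replaced Tmsb4x (adjusted p = 0.0665) with Kif26b. With the replicate block, which pairs the passages, 4 transcripts were called, the same 3 and Prmt8. With the block and the GC trend taken out, which was added after seeing the data, 2 were called, Eif4e3 and Tmsb4x, and Dbh had an adjusted p of 0.0792. Without ctrl replicate 1 neither call was one of the 3.

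With Torin1, 651 footprint calls became 343 to 512 without 1 library and 776 with the replicate block. For mRNA, 2 calls became 0 with library size alone, 4 with no further filter, 866 with the replicate block (Tmsb4x among them, and Dbh with an adjusted p of 0.0563) and 0 to 10 without 1 library. For the interaction, 12 became 35 with the replicate block and 1 to 50 without 1 library. TE stayed at 0 throughout, and with the replicate block it was 0. The X median exceeded the autosomal one by 0.17 to 0.25 under the alternatives planned. Over 3 bins by GC content in place of 4, the lowest and highest medians were 0.16 and -0.17. The shallow ctrl replicate 3 and the use of 2 ctrl libraries limit what could be called.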

Other observations

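Genes outside the comparisons above were followed as lists. Of 37 proteasome subunits, 26 had a log2 fold change above 0 and 1, Psmd1 (0.44), had an unadjusted p under 0.05, with a median of 0.09 that was 0.03 once the GC trend was taken out. The spindle and mitosis list had 21 of 29 above 0 and a median of 0.10, with Spc25, a kinetochore subunit, at 34.3 and 40.3 CPM in ctrl and 50.0, 59.9 and 64.1 CPM in KO libraries, and Bub1, a checkpoint kinase, at 0.57 on the log2 scale. With the GC trend taken out the median was 0.05. Cholesterol synthesis had a median of 0.06 over 26 transcripts, heat shock 0.10 over 15 (0.01 with the trend taken out), glycolysis and the TCA cycle -0.03 over 34, p53 targets -0.17 over 18 (-0.07 over 17 with the trend taken out) and elongation factors with other TOP mRNAs -0.00 over 21. Eef2, an elongation factor with a TOP tract, had a log2 fold change of -0.32 (edgeR adjusted p = 0.628).

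Of the interferon-stimulated genes, 10 were tested, with a median of 0.14. At an unadjusted p under 0.05, 2 were higher and 0 lower, beside 3.81% and 4.09% of all transcripts. Eif2ak2, the kinase PKR, had 19.6 and 22.4 CPM in ctrl and 27.8, 34.3 and 30.8 CPM in KO libraries. These did not overlap, as for 26.5% of all transcripts tested, and edgeR's adjusted p was 0.545. With the GC trend taken out, the log2 fold change of Eif2ak2 was 0.36 in place of 0.63 (edgeR unadjusted p = 0.106). With Torin1 it was -0.19.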
